A study of Mus musculus with 12 samples.

Results

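Innate sensing and interferon response genes encode the receptors, adaptors, transcription factors and effectors with which cells detect microbial molecules and answer interferon. The members were chosen by their mouse symbol, which had to begin with or equal the name of a Toll-like receptor, an adaptor or kinase below it, an NF-kB subunit or regulator, a TNF alpha-induced protein, a cytosolic sensor, a caspase, an interferon regulatory factor, a STAT factor or an interferon-induced effector family. They also had to be above 0 in at least 4 libraries. Of 10749 genes listed in the deposited table, 66 met the rule, and 64 of these passed the filter on low counts and were tested. The other two, Stat4 and Oas1f, ran from 0 to 0.642 and from 0 to 1.36 in level. The symbol pattern matched 67 listed genes, of which Casp12 was left out because it was above 0 in only 2 libraries. It matches 174 genes of the mouse annotation, so well-known members of these pathways such as Myd88, Tlr2, Nfkb1, Nfkbia, Stat3, Irf7, Isg15, Bst2 and Rsad2 were not analysed here. For 5 members (Ifitm1, Irf2bp1, Casp8ap2, Isg20l2 and Irak1bp1) the symbol only begins like that of a family to which the gene does not belong. The role groups below follow the symbols and count these 5 as well.

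Toll-like receptors bind microbial lipids, proteins and nucleic acids and signal through kinases of the IRAK family and TRAF ubiquitin ligases to NF-kB, which is held back by inhibitory proteins of the IkB family. Cytosolic sensors such as Nlrp3 activate caspase-1, and interferon receptors act through STAT and IRF factors on promoters that carry the interferon-stimulated response element. In the brain these genes are best known from microglia and from the macrophages at its borders, and interferon-induced genes can be switched on in almost any cell type.

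RNA was taken from fluorescence-sorted dentate gyrus cells of LPA1-GFP reporter mice aged 8 weeks, in 3 populations with 4 replicates each. All animals carried the STOCK Tg(Lpar1-EGFP)GX193Gsat/Mmucd transgene, which reports the lysophosphatidic acid receptor gene Lpar1 as green fluorescent protein (GFP). The line began on a FVB/N-Swiss Webster background and was rederived into C57BL/6. Stem libraries came from cells sorted as LPA1-GFP+EGFR+Prominin1+, where EGFR is the epidermal growth factor receptor and Prominin1 a membrane glycoprotein. Progenitor libraries came from GFP-positive cells of the other 3 combinations. These were LPA1-GFP+EGFR-Prominin-1- cells, cells with EGFR but not Prominin1 (LPA1-GFP+EGFR+Prominin-1-), and cells with Prominin1 that the labels write as LPA1-GFP+EGF-Prominin-1+. Niche libraries came from LPA1-GFP- cells, and the RNA of 1000 cells was amplified for a library. The series' design text says that each replicate gave all 3 populations, but not whether a replicate was an animal, a pool or a day of sorting. The p-values therefore measure the spread between these libraries.

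Library totals ran from 7597256 to 22854036 reads. Levels below are RPKM (reads corrected for exon length and library total) divided by a trimmed-mean (TMM) factor, and a difference is between means of log2(level + 1), given with its standard error (SE). A member is called higher or lower when limma's p, adjusted by the Benjamini-Hochberg method over all 8364 genes tested, is below 0.05. The 3 comparisons share libraries with each other, so their results are not independent. In bulk RNA, fewer cells of a type and less RNA per cell cannot be told apart.

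The labels were checked against markers. Of 24 macrophage and microglia markers, 11 were listed (Csf1r, Tyrobp, Ctss, Trem2, Mrc1, Itgam, Adgre1, Laptm5, Spi1, Cd163 and Pf4), and all 11 were above 0 in every library. Their summed level was 5169, 14842, 4328 and 3801 in stem libraries 1 to 4, 169 to 419 in progenitor libraries and 3445 to 5948 in niche libraries. All 11 were called higher in stem than in progenitor libraries, 4 (Mrc1, Adgre1, Cd163 and Pf4) were higher and 2 (Ctss and Trem2) lower in stem than in niche libraries, and 8 were lower in progenitor than in niche libraries. Of 11 neural stem and radial glia markers 8 were listed (Sox2, Nes, Egfr, Fabp7, Vim, Sox1, Id4 and Hes5). Egfr, whose protein was used in the sort, was called higher in stem than in progenitor and niche libraries. Sox1 was higher in stem than in niche libraries only, Id4 was lower in stem than in both, and the others were called in neither comparison. Their sums were 624 to 1229 in the stem sort, 1109 to 2412 in progenitor libraries and 594 to 758 in niche libraries. Fabp7 alone averaged 721, 1412 and 500 in these populations. So the libraries labelled stem carried macrophage marker RNA (11 genes) at a higher summed level than neural stem marker RNA (8 genes), and the label is kept here only as the name of the sort. The 4 cycling markers listed (of 8) summed to 475 to 844 in the stem sort, 116 to 247 in progenitor libraries and 6.81 to 22.3 in niche libraries. The neutrophil marker S100a8 was at most 1.71, and the lymphocyte markers Cd79a and Nkg7 together reached 2.69 in the stem sort, 8.88 in progenitor libraries and 83.3 in niche libraries. Alpha-globin took 2.62% to 33.0% of the reads in niche libraries and at most 0.228% in the others. Niche replicate 1 and progenitor replicate 1 had the fewest genes above 0 of their populations (8037 and 8455). Some, but not all, of the results that change without them are given with both values.

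Compared with progenitor libraries, stem libraries had higher RNA levels of 3 of the 4 Toll-like receptors tested and 1 of the 3 cytosolic sensors. Of the 9 members grouped as caspases, Casp8ap2 included, 2 were higher. The Toll-like receptors Tlr4, Tlr13 and Tlr5, the inflammatory caspases Casp1 and Casp4, the sensor Nlrp3 and the IkB protein Nfkbid were higher, by differences of 1.66 to 3.76. So were the transcription factors Irf4, Irf5, Irf8 and Stat6, the kinase Irak4, the apoptosis regulator Tnfaip8 and the interferon-induced genes Gbp7 and Oasl2. Only Ifitm1 and Tnfaip6 were lower among the 64. The 15 members called higher were 23.4% of those tested, beside 3.71% of all genes, and the 2 called lower were 3.13%, beside 3.4% of all genes. The median difference was 1.03 over the members and -0.06 over all genes tested. For all 17 called members, the 4 stem libraries and the 4 progenitor libraries did not overlap. The calls rest on the same levels, so this is no separate result, and overlap was not counted over all genes.

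Stem replicate 2, with the highest macrophage sum, had the highest level of the 4 stem libraries for 15 of the 15 members called higher than in progenitor. The part of macrophage RNA in these differences was not tested. Without stem replicate 2 the number called higher was 6, while all genes called higher numbered 199 in place of 310. It was 7 without stem replicate 1 (211 of all genes), 7 without progenitor replicate 1 (223), 7 without progenitor replicate 2 (227) and 6 without progenitor replicate 3 (220). In these 5 fits the members called higher were 9.38% to 10.9% of the 64, beside 2.38% to 2.71% of all genes. Tlr4, Casp1, Casp4, Nfkbid, Tlr5, Ifitm1 and Tnfaip6 kept their calls in every alternative fit.

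**Figure D1:**
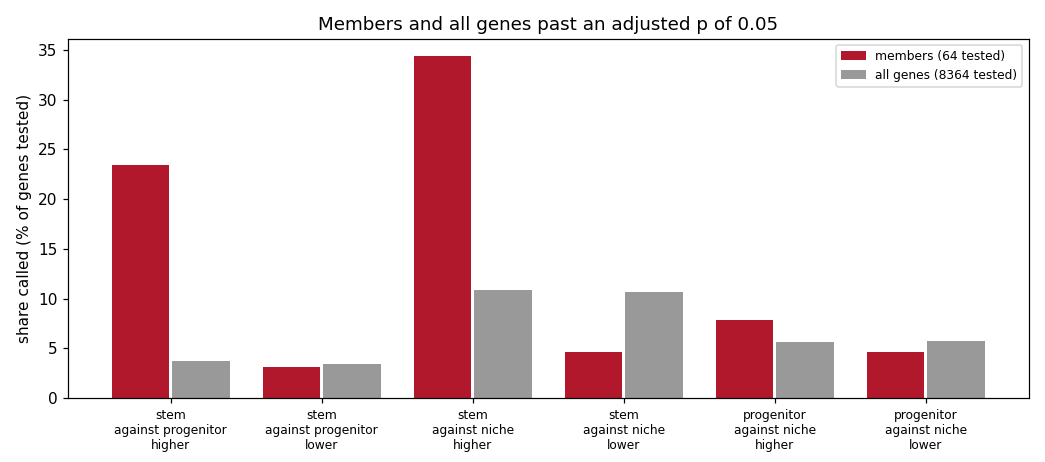
Share of genes called higher or lower in each comparison (percent of genes tested), for the 64 tested members (red) and for all 8364 genes tested (grey). The largest gaps are for members higher in stem than in progenitor libraries (23.4% beside 3.71%) and in stem than in niche libraries (34.4% beside 10.9%).

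Against niche libraries, stem libraries were higher in 5 of the 9 members grouped as caspases and 8 of the 21 grouped as interferon-induced effectors. These counts include Casp8ap2 and Isg20l2, which share only the beginning of the symbol with those families. The cell death proteases Casp2 and Casp9 and the inflammatory Casp4 were higher, as was Casp8ap2. The interferon-induced effectors Ifit3, Ifit3b, Ifit2, Oasl2, Oasl1, Gbp7 and Ifi208 were higher, together with Stat2 and Irf9, which are parts of the transcription complex that interferon activates. Tlr4, Tlr5, Nfkbid, Nfkbie, Irf4, Tnfaip8, Tnfaip8l1 and Isg20l2 were also higher, and Ifitm1, Tnfaip6 and Isg20 were lower. The 22 members called higher were 34.4% of the 64, beside 10.9% of all genes, and the 3 called lower were 4.69%, beside 10.7% of all genes. The median difference was 1.10 over the members and 0.09 over all genes.

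Among these called members, the stem and niche libraries overlapped for Isg20, Nfkbid, Nfkbie, Oasl1 and Tlr5 and not for the others. Overlap was not counted over all genes, and the calls rest on the same levels, so it is no separate result. The macrophage sums of the stem and niche libraries overlapped (3801 to 14842 and 3445 to 5948), but they pool markers that moved in opposite directions. Mrc1 (181 to 740 and 4.97 to 12.1), Adgre1, Cd163 and Pf4 were higher in stem libraries without overlap. Ctss and Trem2 were lower there, with overlap, and the other listed macrophage markers were not called. The cycling sums were 475 to 844 and 6.81 to 22.3. The part of macrophages and of cycling cells in the differences of the members was not tested. The number called lower was 5 without niche replicate 1 (7.81% of the 64, beside 17.1% of all genes). Scaling by library size alone raised the median difference of all genes to 0.58, the share of all genes called higher to 24.2% and the members called higher to 30 (46.9%).

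Between progenitor and niche libraries few members differed. Casp2, Ifit3, Ifit3b and Stat2 were among those higher in progenitor libraries, by 1.89 to 3.48, and Irf8, Casp1 and Isg20 were lower. The 5 called higher were 7.81% of the 64, beside 5.66% of all genes, and the 3 called lower were 4.69%, beside 5.76% of all genes, so neither share was far from that of all genes. The median difference was -0.03 over the members and 0.15 over all genes. Scaling by library size alone moved the median of all genes to 0.62 and the calls to 7 higher (10.9% of the 64, beside 18.2% of all genes) and 2 lower (3.12%, beside 3.75%). The groups overlapped for Stat2 and not for the other called members, which is no separate result, since the calls rest on the same levels. Overlap was not counted over all genes. With the replicate number as a block 5 members were called lower, the added ones being Tlr13 (-2.56 ± 0.70 (SE), limma adjusted p = 0.0322) and Casp8 (-2.04 ± 0.61 (SE), limma adjusted p = 0.0454).

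Both counts changed with the libraries used. The number called higher was 8 without progenitor replicate 1 (12.5% of the 64, beside 6.92% of all genes). Without niche replicate 1, 8 members were lower in progenitor libraries, which is 12.5% of the 64 and near the 11.9% of all genes called lower in that fit. The additions were Nlrp3 (-2.52 ± 0.42 (SE), limma adjusted p = 0.000831), Irak2 (-2.37 ± 0.41, 0.00102), Tlr13 (-3.54 ± 0.68, 0.00217), Irf5 (-1.18 ± 0.38, 0.042) and Tnfaip2 (-1.37 ± 0.44, 0.0427). Nlrp3 is the inflammasome sensor and Irak2 a kinase of the Toll-like receptor pathway. The number called lower was 0 without progenitor replicate 2, 3 or 4 (3.56% to 3.62% of all genes), and it was 1 without progenitor replicate 1 or stem replicate 4 (5.98% and 5.13% of all genes). Macrophage sums were 169 to 419 in progenitor and 3445 to 5948 in niche libraries, and their part in the lower members was not tested.

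**Figure D2:**
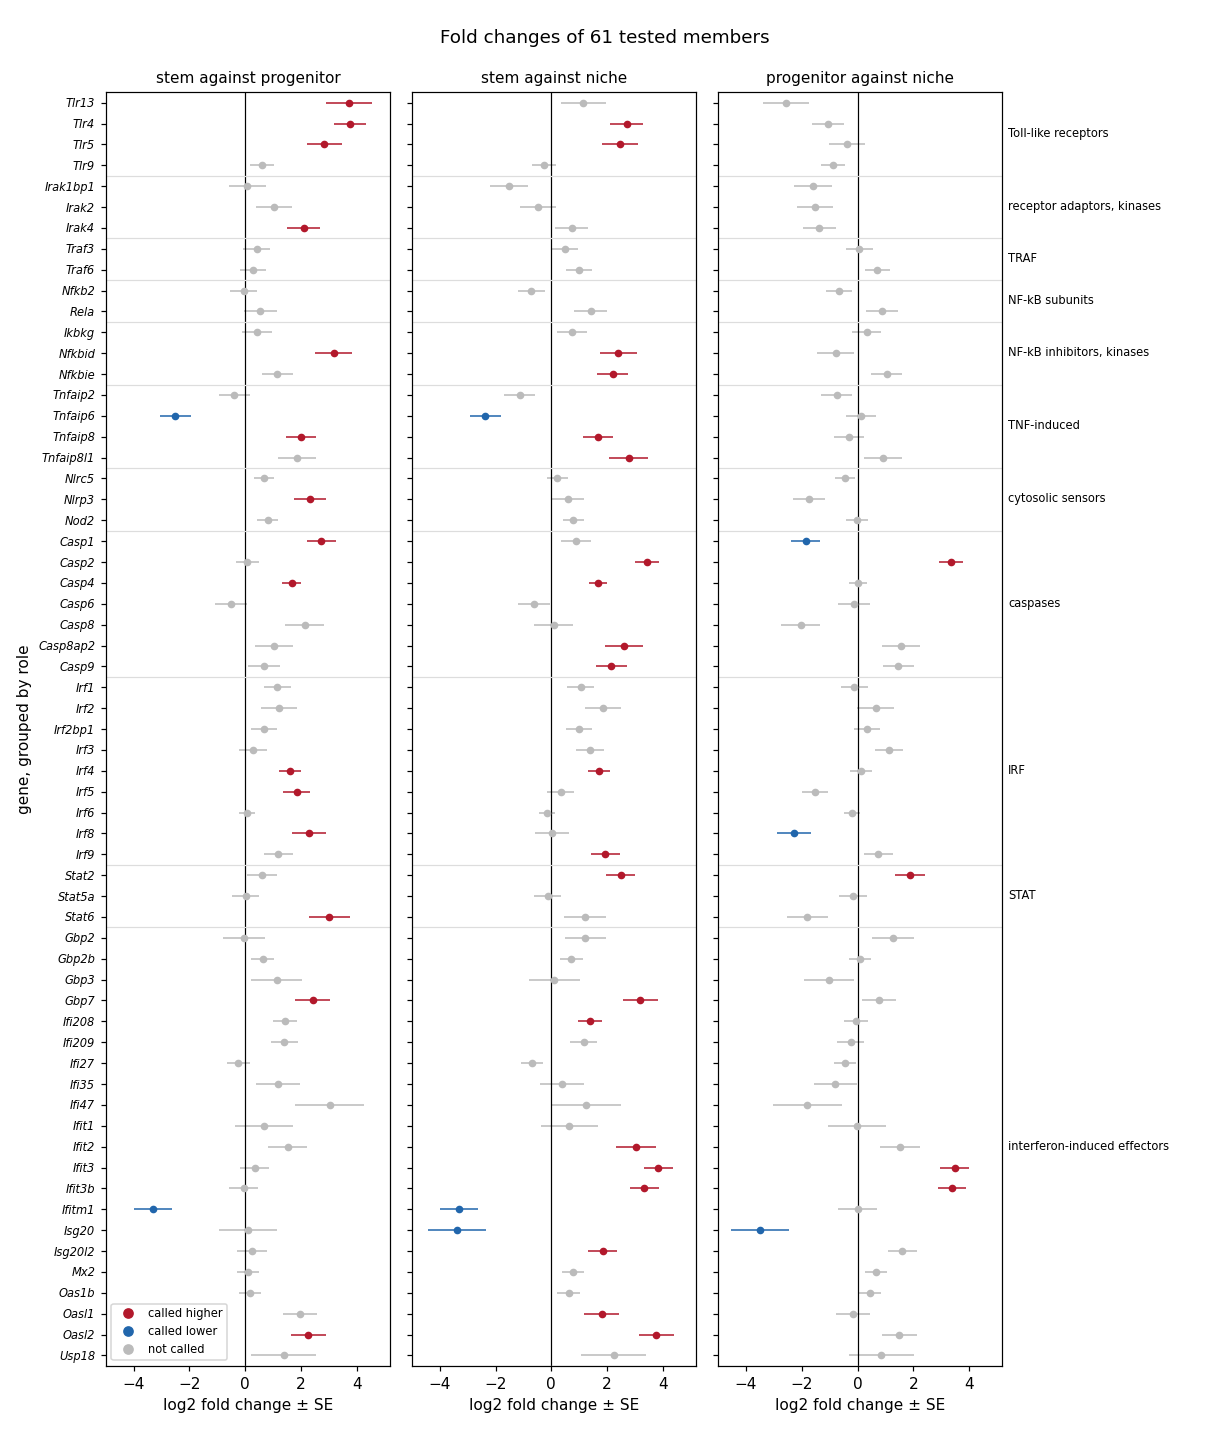
Difference between means of log2(level + 1), with its SE, for 61 of the 64 tested members in the 3 comparisons (x axis; genes on the y axis, grouped by role), where red marks members called higher, blue lower and grey not called. The Toll-like receptors and Casp1 lie to the right in the stem against progenitor panel, whereas Casp2, Ifit3 and Ifit3b lie near 0 there and to the right in the panels against niche.

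**Figure D3:**
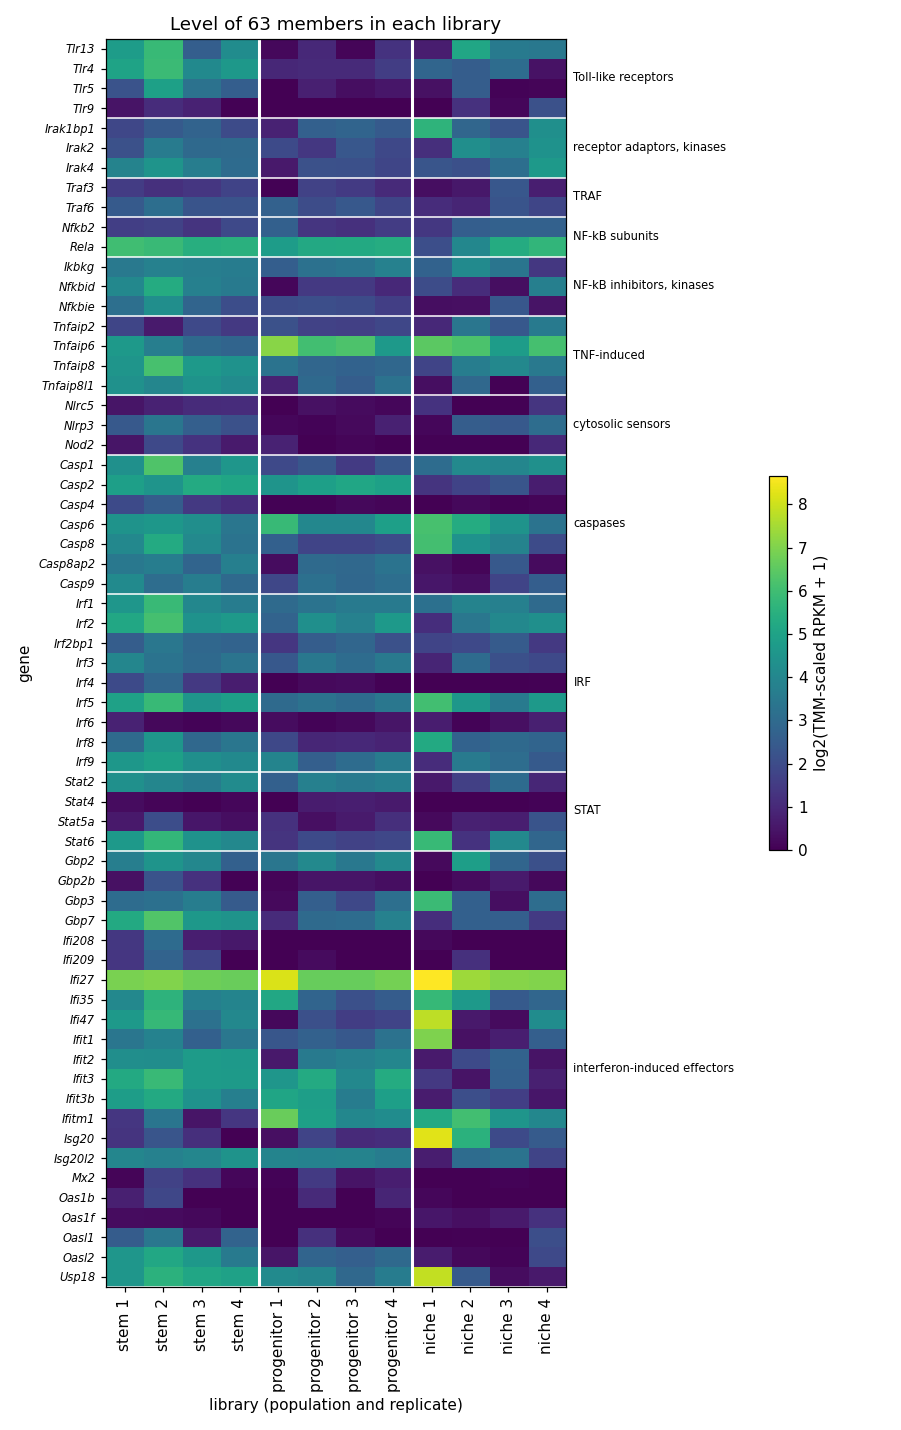
Level of 63 of the 66 members (rows, grouped by role) in each of the 12 libraries (columns), as log2(TMM-scaled RPKM + 1) by colour. Ifi27 is the brightest row in all 3 populations, and niche replicate 1 is brighter than the other niche libraries for Isg20, Usp18, Ifi47 and Ifit1.

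Toll-like receptors were the role group with the largest median difference between stem and progenitor libraries, 3.28 over its 4 members. Tlr4, the receptor of bacterial lipopolysaccharide (chromosome 4, 66827584 to 66930284, plus strand, GRCm38), had levels of 31.9, 59.3, 16.3 and 23.3 in stem libraries, 0.946, 1.06, 1.07 and 1.98 in progenitor libraries, and 6.05, 4.89, 7.40 and 0.330 in niche libraries. Every stem library lay above every other library. The difference was 3.76 ± 0.59 (SE, n = 4 each) against progenitor (limma adjusted p = 0.00102) and 2.70 ± 0.59 against niche (limma adjusted p = 0.00389).

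Tlr13, which in the mouse detects bacterial ribosomal RNA, had the highest mean level of the receptors. It was at 26.9, 56.7, 4.97 and 17.7 in stem libraries, 0.126, 1, 0.0982 and 1.41 in progenitor libraries, and 0.627, 33.8, 10.7 and 10 in niche libraries. Stem libraries lay above progenitor libraries and overlapped with niche libraries. The difference was 3.72 ± 0.82 (SE) against progenitor (limma adjusted p = 0.0106), and 0.0533 was the adjusted p without stem replicate 2.

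Tlr5, the receptor of flagellin, had levels of 3.62, 29.5, 8.53 and 5.03 in stem libraries, 0.0232, 0.697, 0.241 and 0.423 in progenitor libraries, and 0.312, 4.87, 0.0504 and 0.0954 in niche libraries. Niche replicate 2 was the only library outside the stem population above 1. The difference was 2.84 ± 0.64 (SE) against progenitor (limma adjusted p = 0.0118) and 2.46 ± 0.64 against niche (limma adjusted p = 0.0124). In a fit of the stem and niche libraries alone the adjusted p against niche was 0.0503. Tlr9, a receptor of unmethylated DNA, stayed at or below 3.45 in all libraries and was not called.

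Among the kinases and adaptors below these receptors, Irak4, the kinase that starts the cascade, was higher in stem than in progenitor libraries by 2.10 ± 0.59 (SE, limma adjusted p = 0.0436). This call was lost in 9 of 12 fits that left out a library, namely any of the stem or progenitor libraries or niche replicate 3, with adjusted p-values up to 0.151. It was also lost with the replicate number as a block (adjusted p = 0.0565). Irak1bp1, a binding partner of IRAK1, had the highest mean of the group, with 2.63, 4.50, 5.79 and 2.94 in stem libraries, 0.763, 5.30, 5.97 and 4.48 in progenitor libraries, and 49.1, 6.31, 3.73 and 18.9 in niche libraries. Its populations overlapped and it was not called. Of the TRAF ubiquitin ligases neither was called, though with library-size scaling Traf6 was higher in stem than in niche libraries (limma adjusted p = 0.0325). Traf6 had 4.46, 7.74, 3.71 and 3.66 in stem libraries, 5.51, 3.07, 4.18 and 2.51 in progenitor libraries, and 1.15, 0.864, 3.74 and 2.55 in niche libraries.

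Neither NF-kB subunit was called in the planned fit. Rela, the main activating subunit, was at 63.0, 57.6, 42.5 and 43.8 in stem libraries, 26.8, 36.5, 37.6 and 40.0 in progenitor libraries, and 3.26, 15.2, 39.3 and 51.2 in niche libraries. Stem libraries all lay above progenitor libraries, yet the difference of 0.54 ± 0.59 (SE) did not pass (limma adjusted p = 0.771). Against niche it was 1.41 ± 0.59 (limma adjusted p = 0.0995), and it passed with library-size scaling (limma adjusted p = 0.0407) and without niche replicate 4 (limma adjusted p = 0.0299). Nfkb2, the subunit of the alternative pathway, ranged from 1.3 to 5.44. Without niche replicate 1 and progenitor replicate 1 it was lower in stem than in niche libraries (-1.10 ± 0.32 (SE), limma adjusted p = 0.0168) and in progenitor than in niche libraries (-1.38 ± 0.34, limma adjusted p = 0.0113).

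Nfkbid, a nuclear IkB protein induced by Toll-like receptors, was the inhibitor that differed most. Its levels were 15.7, 39.4, 12.8 and 10.8 in stem libraries, 0.102, 1.71, 1.71 and 1.01 in progenitor libraries, and 3.02, 1.15, 0.259 and 12.3 in niche libraries. Niche replicate 4 lay within the stem range. The difference was 3.18 ± 0.67 (SE) against progenitor (limma adjusted p = 0.00738) and 2.40 ± 0.67 against niche (limma adjusted p = 0.0179). The niche call was lost without stem replicate 2, niche replicate 2 or niche replicate 3 (adjusted p up to 0.0651).

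Nfkbie, which holds NF-kB in the cytoplasm, was higher in stem than in niche libraries (2.20 ± 0.57 (SE), limma adjusted p = 0.0115). Ikbkg, the regulatory subunit of the kinase that marks IkB proteins for degradation, had 10.4, 12.9, 11.9 and 11.3 in stem libraries, 5, 8.39, 9.31 and 12.9 in progenitor libraries, and 5.67, 16.8, 9.30 and 1.67 in niche libraries. Its populations overlapped and it was not called.

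The TNF alpha-induced proteins moved in opposite directions. Tnfaip6, a secreted protein that binds hyaluronan (chromosome 2, 52038009 to 52056686, plus strand, GRCm38), was at 24.1, 11.9, 6.75 and 6.00 in stem libraries, 139, 64.8, 74.3 and 25 in progenitor libraries, and 87.8, 73.7, 26.4 and 67.5 in niche libraries. Every stem library lay below all others, and progenitor and niche libraries overlapped. The difference was -2.50 ± 0.54 (SE) against progenitor (limma adjusted p = 0.00958) and -2.37 ± 0.54 against niche (limma adjusted p = 0.00564). Mural cell markers, 5 of 9 listed, summed to 11.8 to 185 in the stem sort, 669 to 1643 in progenitor libraries and 559 to 1769 in niche libraries. Astrocyte markers, 7 of 10 listed, summed to 559 to 1147 in the stem sort, 3392 to 4870 in progenitor libraries and 4935 to 6545 in niche libraries. The part of these cells in the difference was not tested.

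Tnfaip8, a regulator of apoptosis, and its relative Tnfaip8l1 were higher in stem libraries. Tnfaip8 differed by 1.99 ± 0.53 (SE) against progenitor (limma adjusted p = 0.0327) and by 1.69 ± 0.53 against niche (limma adjusted p = 0.0344). The progenitor call was lost without any 1 of the 8 stem and progenitor libraries (adjusted p up to 0.134), and the niche call without stem replicate 1, 2 or 3 or niche replicate 1 (adjusted p up to 0.119). Tnfaip8l1 was called only against niche (2.77 ± 0.69 (SE), limma adjusted p = 0.00975). Whether its 2 differences are unequal was not tested.

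Nlrp3, the sensor of the best-known inflammasome, had 4.31, 9.45, 5.13 and 3.40 in stem libraries, 0.111, 0.0519, 0.152 and 0.731 in progenitor libraries, and 0.0998, 4.86, 4.33 and 7.60 in niche libraries. In reads this was 183 to 432 in stem and 4 to 82 in progenitor libraries. Niche replicate 1 had a level like that of the progenitor libraries, and the other three niche libraries lay within the stem range. The difference from progenitor was 2.33 ± 0.58 (SE, limma adjusted p = 0.0214), and it was lost without stem replicate 2 or 3 or progenitor replicate 1, 2 or 3 (adjusted p up to 0.0822). Nod2, a sensor of bacterial cell walls, and Nlrc5, an activator of class I antigen presentation genes, were at or below 2.73 and were not called.

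Casp1, the protease that inflammasomes activate (chromosome 9, 5298517 to 5307265, plus strand, GRCm38), had 19.3, 77.1, 12.7 and 22.5 in stem libraries, 2.78, 3.97, 1.77 and 3.99 in progenitor libraries, and 7.33, 15.9, 14.6 and 19.5 in niche libraries. Progenitor libraries were the lowest 4 of the 12. The difference was 2.73 ± 0.53 (SE) for stem against progenitor (limma adjusted p = 0.00475) and -1.86 ± 0.53 for progenitor against niche (limma adjusted p = 0.0329). The progenitor against niche call was lost without any 1 progenitor library, without niche replicate 2, 3 or 4 and without stem replicate 4 (adjusted p up to 0.108).

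Casp4, which in the mouse binds lipopolysaccharide in the cytosol, lies next to Casp1 on chromosome 9 (5308828 to 5336783, plus strand). Its levels were 2.88, 4.80, 1.74 and 1.20 in stem libraries, 0.0416, 0.0436, 0.137 and 0.0900 in progenitor libraries, and 0, 0.144, 0.0452 and 0.0856 in niche libraries. These came from 63 to 196 reads in stem and at most 12 reads in each other library. The difference was 1.66 ± 0.33 (SE) against progenitor (limma adjusted p = 0.0055) and 1.68 ± 0.33 against niche (limma adjusted p = 0.00189). Low levels are compressed on the log2(level + 1) scale.

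Casp2 separated niche libraries from both GFP-positive populations. Casp2, a protease linked to the response to DNA damage (chromosome 6, 42264985 to 42282508, plus strand, GRCm38), had 29.0, 21.2, 38.2 and 32.8 in stem libraries, 21.5, 28.7, 33.7 and 29.5 in progenitor libraries, and 1.46, 2.37, 3.83 and 0.632 in niche libraries. Stem and progenitor libraries overlapped, and every niche library lay below them. The difference was 3.43 ± 0.42 (SE) for stem against niche (limma adjusted p = 3.15e-05) and 3.35 ± 0.42 for progenitor against niche (limma adjusted p = 8.17e-05). Between stem and progenitor libraries Casp2 was not called.

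Casp9, which starts the mitochondrial pathway to cell death, was higher in stem than in niche libraries (2.15 ± 0.56 (SE), limma adjusted p = 0.0129). Casp8ap2, a protein of histone messenger RNA processing, was higher there too (2.61 ± 0.68 (SE), limma adjusted p = 0.0126). Casp6 and Casp8 were called in no comparison of the planned fit. Casp8 stood at 66.1 in niche replicate 1 and at 2.96 to 20.5 in the other niche libraries. Without that library Casp8 was higher in stem than in progenitor libraries (2.17 ± 0.54 (SE), limma adjusted p = 0.0153). With the replicate block Casp8 passed against progenitor too (limma adjusted p = 0.0497).

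All 9 members grouped as interferon regulatory factors, Irf2bp1 included, had positive differences between stem and progenitor libraries. Of these 3 were called higher, beside 3.71% of all genes, and 55 of all 64 tested members had positive differences. Irf4, a factor of lymphocytes and macrophages, had 2.85, 6.31, 1.71 and 0.622 in stem libraries, 0.0158, 0.177, 0.182 and 0.0304 in progenitor libraries, and 0, 0, 0.0172 and 0.0325 in niche libraries. It came from 43 to 339 reads in the stem sort, 1 to 21 in progenitor libraries and at most 1 in niche libraries. The difference was 1.60 ± 0.39 (SE) against progenitor (limma adjusted p = 0.0193) and 1.72 ± 0.39 against niche (limma adjusted p = 0.00525). The progenitor call was lost without stem replicate 1 or any 1 progenitor library (adjusted p up to 0.0561).

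Irf8, a factor that macrophages and microglia need, had 6.92, 22.5, 6.60 and 9.51 in stem libraries, 2.64, 0.921, 0.990 and 0.832 in progenitor libraries, and 37.7, 5.65, 6.85 and 5.90 in niche libraries. Progenitor libraries were the lowest of the 12. The difference was 2.30 ± 0.60 (SE) for stem against progenitor (limma adjusted p = 0.0282) and -2.27 ± 0.60 for progenitor against niche (limma adjusted p = 0.023). The stem call was lost without stem replicate 1, 2 or 4 or progenitor replicate 2, 3 or 4 (adjusted p up to 0.118), and the niche call without progenitor replicate 2, 3 or 4 (adjusted p up to 0.0704).

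Irf5, a factor of Toll-like receptor signalling, had the highest mean of the family. It was at 29.8, 56.9, 22.2 and 27.7 in stem libraries, 7.07, 8.70, 7.25 and 9.79 in progenitor libraries, and 64.6, 23.3, 10.9 and 24.2 in niche libraries. Stem libraries lay above progenitor libraries and within the niche range. The difference from progenitor was 1.85 ± 0.48 (SE, limma adjusted p = 0.0278), and the call was lost in 7 of 12 fits without a library (any 1 progenitor library or stem replicate 1, 2 or 4; adjusted p up to 0.116). Irf9 was higher in stem than in niche libraries (1.94 ± 0.53 (SE), limma adjusted p = 0.0159), with an adjusted p of 0.051 without stem replicate 2. Against progenitor it was not called (limma adjusted p = 0.243), but it passed without niche replicate 1 (1.22 ± 0.36 (SE), limma adjusted p = 0.0396). Irf3, which sensors of nucleic acids activate, differed by 1.40 ± 0.50 (SE) between stem and niche libraries and did not pass (limma adjusted p = 0.0587), whereas it did with library-size scaling (limma adjusted p = 0.0199).

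Stat6, the factor of interleukin-4 signalling, had the highest mean level of the STAT factors. It was at 24.8, 52.2, 20.2 and 15.5 in stem libraries, 1.48, 2.89, 2.25 and 2.58 in progenitor libraries, and 55.6, 1.42, 16.1 and 6.18 in niche libraries. Stem libraries lay above progenitor libraries, and niche libraries spread over both ranges. The difference from progenitor was 3.02 ± 0.74 (SE, limma adjusted p = 0.0197), and it was lost without stem replicate 1 or 2 or progenitor replicate 1 or 3 (adjusted p up to 0.0855). Without niche replicate 1, Stat6 was higher in stem than in niche libraries (1.94 ± 0.58 (SE), limma adjusted p = 0.022).

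Stat2, part of the complex that interferon activates, was lowest in niche libraries. Its levels were 19.3, 14.8, 11.4 and 17.1 in stem libraries, 5.32, 12.8, 10.8 and 12.3 in progenitor libraries, and 0.493, 2.15, 7.26 and 0.892 in niche libraries. Niche replicate 3 overlapped with progenitor replicate 1. The difference was 2.48 ± 0.53 (SE) for stem against niche (limma adjusted p = 0.00359) and 1.89 ± 0.53 for progenitor against niche (limma adjusted p = 0.0317). The progenitor call was lost without progenitor replicate 2, 3 or 4 or niche replicate 2 or 4 (adjusted p up to 0.101). Stat5a was not called.

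**Figure D4:**
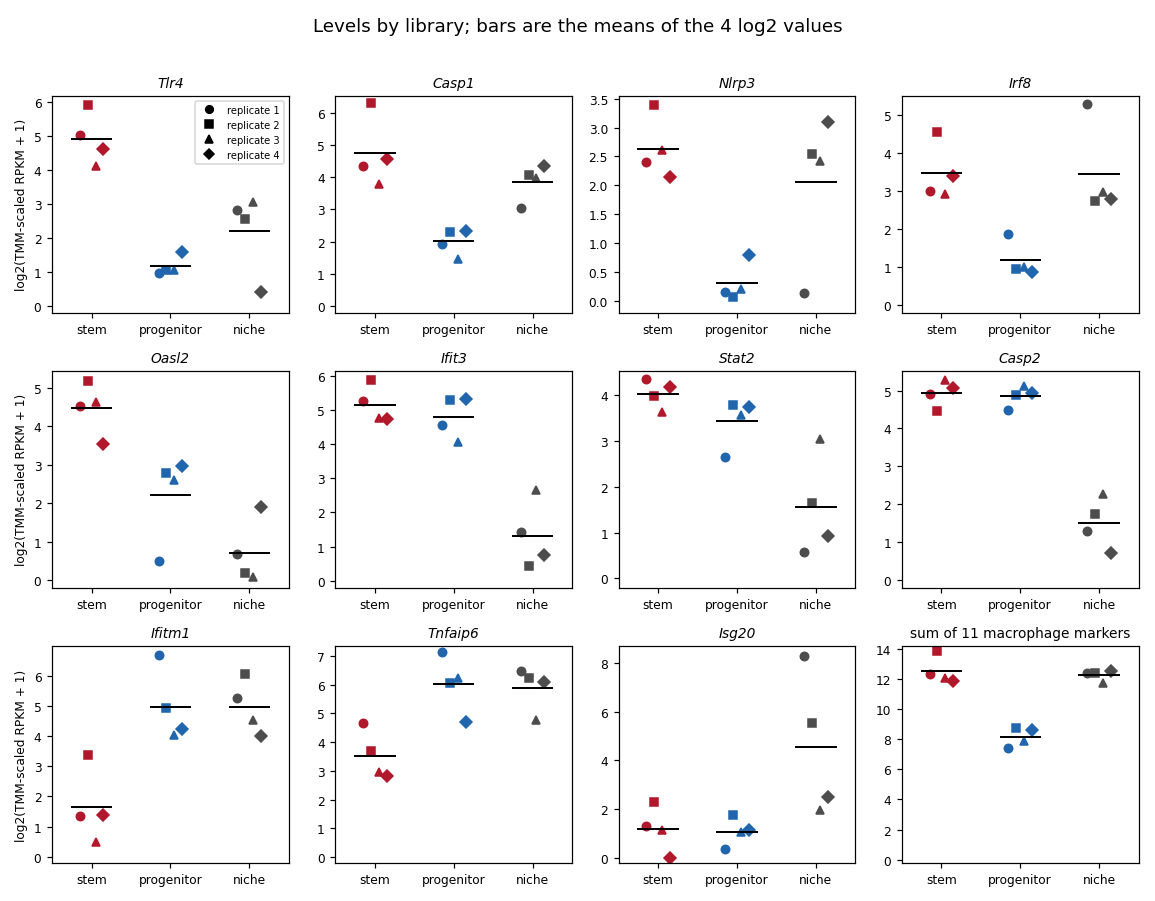
Level of 11 members and summed level of the 11 listed macrophage and microglia markers in each library, as log2(TMM-scaled RPKM + 1) on the y axis, by population on the x axis, with bars at the mean of the 4 log2 values. Casp1 and Irf8 are lowest in progenitor libraries, as the marker sum is, whereas Ifit3 and Casp2 are lowest in niche libraries and Ifitm1 and Tnfaip6 in stem libraries.

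The 21 tested members grouped as interferon-induced effectors include Isg20l2. Of the 21, 8 were higher and 2 lower in stem than in niche libraries (10.9% and 10.7% of all genes), and 18 had positive differences. In stem against progenitor libraries Gbp7 and Oasl2 were called higher and Ifitm1 lower (3.71% and 3.4% of all genes), and 17 of 21 differences were positive. Whether the effectors differ between the 2 comparisons was not tested. Promoter sequences were searched for all members that had one, called or not, since the interferon-stimulated response element is the sequence through which interferon acts on such genes. RefSeq promoters (GRCm38.p6, 250 bases before to 50 after the gene start) matched 55 of the 66 members. The core letters GAAANNGAAA, searched on both strands, were in the promoters of 11 members (Gbp2, Gbp2b, Gbp3, Gbp7, Ifi208, Ifit1, Ifit3, Ifit3b, Irf2, Stat2 and Stat4), which is 20% of the 55, beside 3.99% of 27025 genes with a promoter. The NF-kB letters GGGANNTTCC were in those of 6 (Gbp2, Ifi209, Ifit2, Isg20, Nfkb2 and Tnfaip8l1), 10.9% of the 55, beside 1.63% of all. A match describes letters in this window and is not a measured binding site.

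The promoters of 4 called members with the interferon-stimulated response element are shown, each on the plus strand from 5′ to 3′ with the matched letters in capitals. Ifi208, also called and matched, is not shown. All matches read GAAANNGAAA on the opposite strand. Gbp7 (chr3:142530086-142530385) has 1 match, 53 bases before the start, and Stat2 (chr10:128270248-128270547) has 1, 222 bases before it. Ifit3 (chr19:34583279-34583578) has 2 matches, 156 and 122 bases before the start. Ifit3b (chr19:34607707-34608006) has 2, 188 and 154 bases before it, so both pairs have the same spacing.
Gbp7: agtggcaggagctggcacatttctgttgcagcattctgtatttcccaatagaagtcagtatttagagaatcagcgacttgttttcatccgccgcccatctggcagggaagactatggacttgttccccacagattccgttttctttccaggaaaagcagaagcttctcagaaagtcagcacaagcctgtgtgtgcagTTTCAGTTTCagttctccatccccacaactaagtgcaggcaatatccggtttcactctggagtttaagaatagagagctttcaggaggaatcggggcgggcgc
Stat2: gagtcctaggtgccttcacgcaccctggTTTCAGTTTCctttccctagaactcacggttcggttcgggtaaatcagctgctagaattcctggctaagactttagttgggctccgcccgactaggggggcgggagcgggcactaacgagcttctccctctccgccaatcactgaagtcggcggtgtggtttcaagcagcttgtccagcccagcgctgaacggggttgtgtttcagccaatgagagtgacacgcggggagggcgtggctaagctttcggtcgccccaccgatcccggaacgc
Ifit3: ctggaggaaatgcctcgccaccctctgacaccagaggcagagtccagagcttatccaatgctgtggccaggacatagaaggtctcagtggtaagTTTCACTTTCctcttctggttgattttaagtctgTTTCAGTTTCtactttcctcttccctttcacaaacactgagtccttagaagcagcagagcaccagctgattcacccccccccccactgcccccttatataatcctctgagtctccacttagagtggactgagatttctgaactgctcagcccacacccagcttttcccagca
Ifit3b: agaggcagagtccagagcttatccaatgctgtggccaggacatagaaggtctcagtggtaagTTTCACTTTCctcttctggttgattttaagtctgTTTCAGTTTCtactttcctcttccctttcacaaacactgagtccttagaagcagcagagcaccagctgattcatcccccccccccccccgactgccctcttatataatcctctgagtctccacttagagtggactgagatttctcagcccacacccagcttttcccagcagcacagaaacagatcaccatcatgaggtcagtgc

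Ifit3 and Ifit3b encode nearly identical proteins that bind viral RNA complexes, and they are neighbours on chromosome 19. How reads that fit both copies were assigned is not given in the sources used here, so the split between them is uncertain. Ifit3 (34583531 to 34588731, plus strand, GRCm38) had 37.1, 57.5, 26 and 25.4 in stem libraries, 22.4, 38.1, 15.6 and 38.8 in progenitor libraries, and 1.69, 0.363, 5.25 and 0.691 in niche libraries. Ifit3b (34607970 to 34613401, plus strand) had 27.5, 37.0, 20.3 and 12.5 in stem libraries, 33.2, 27.9, 11.5 and 28.4 in progenitor libraries, and 0.591, 3.23, 2.07 and 0.452 in niche libraries. For both genes the stem and progenitor libraries overlapped and every niche library lay below them.

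The stem against niche difference was 3.83 ± 0.52 (SE) for Ifit3 (limma adjusted p = 8.16e-05) and 3.34 ± 0.51 for Ifit3b (limma adjusted p = 0.000224). Progenitor against niche gave 3.48 ± 0.52 (SE) for Ifit3 (limma adjusted p = 0.000406) and 3.39 ± 0.51 for Ifit3b (limma adjusted p = 0.000409). The neighbouring family member Ifit2 was higher in stem than in niche libraries (3.04 ± 0.71 (SE), limma adjusted p = 0.00613). Without progenitor replicate 1, Ifit2 was also higher in progenitor than in niche libraries (2.31 ± 0.55 (SE), limma adjusted p = 0.0155). Ifit1 was not called, with 126 in niche replicate 1 and 0.310 to 5.17 in the other niche libraries. With that library left out it was higher in stem than in niche libraries (2.09 ± 0.54 (SE), limma adjusted p = 0.0097).

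Oasl2, an interferon-induced relative of the enzymes that sense double-stranded RNA, was highest in stem libraries. It had 22.4, 35.6, 23.8 and 10.6 in stem libraries, 0.409, 5.86, 5.09 and 6.81 in progenitor libraries, and 0.587, 0.142, 0.0593 and 2.75 in niche libraries. Stem libraries lay above all others, and progenitor replicate 1 lay within the niche range. The difference was 3.77 ± 0.62 (SE) against niche (limma adjusted p = 0.00043) and 2.27 ± 0.62 against progenitor (limma adjusted p = 0.0359). The progenitor call was lost without stem replicate 1, 2 or 3 or progenitor replicate 1, 2 or 3 (adjusted p up to 0.129). Without progenitor replicate 1, Oasl2 was higher in progenitor than in niche libraries (2.08 ± 0.54 (SE), limma adjusted p = 0.0243). Oasl1 was called against niche (1.80 ± 0.61 (SE), limma adjusted p = 0.0475), a call lost in 10 of 12 fits without a library (all but stem replicate 3 and niche replicate 4; adjusted p up to 0.135).

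Gbp7, a guanylate-binding protein of the defence against intracellular microbes had 37.8, 78.2, 23.7 and 20.8 in stem libraries, 1.10, 6.92, 7.37 and 13.1 in progenitor libraries, and 1.21, 5.25, 5.10 and 1.77 in niche libraries. All stem libraries lay above all others. The difference was 3.20 ± 0.62 (SE) against niche (limma adjusted p = 0.00174) and 2.43 ± 0.62 against progenitor (limma adjusted p = 0.0259). The progenitor call was lost without stem replicate 1 or 2 or progenitor replicate 1, 2 or 3 (adjusted p up to 0.111). Its relatives Gbp2, Gbp2b and Gbp3 were not called, and as a multigene family they may share reads. Gbp2 had 5.33 to 21.6 in the stem sort, 9.64 to 16.1 in progenitor libraries and 0.157 to 28.1 in niche libraries.

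Ifitm1, an interferon-induced membrane protein (chromosome 7, 140967221 to 140969825, plus strand, GRCm38), ran opposite to most members. It had 1.57, 9.44, 0.393 and 1.60 in stem libraries, 101, 29.5, 15.2 and 17.8 in progenitor libraries, and 37.2, 64.9, 22.1 and 15 in niche libraries. Every stem library lay below all others. The difference was -3.31 ± 0.69 (SE) against progenitor (limma adjusted p = 0.00714) and -3.30 ± 0.69 against niche (limma adjusted p = 0.00292). Of 10 endothelial markers, 6 were listed, and they summed to 19.4 to 54.9 in the stem sort, 55.7 to 107 in progenitor libraries and 194 to 1072 in niche libraries. Their part in the Ifitm1 difference was not tested.

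Isg20, an exonuclease induced by interferon, had 1.46, 3.93, 1.24 and 0 in stem libraries, 0.287, 2.41, 1.07 and 1.19 in progenitor libraries, and 309, 45.8, 2.87 and 4.61 in niche libraries. Niche libraries spread over a far wider range than the others, with replicate 1 highest. The difference was -3.37 ± 1.05 (SE) for stem against niche (limma adjusted p = 0.0314) and -3.49 ± 1.05 for progenitor against niche (limma adjusted p = 0.042). The stem call was lost without stem replicate 1, 3 or 4 or niche replicate 2 (adjusted p up to 0.0955). The progenitor call was lost without any 1 stem or progenitor library or niche replicate 2 (adjusted p up to 0.095). Without niche replicate 1 and progenitor replicate 1 together it was also lost, at -2.11 ± 0.86 (SE, limma adjusted p = 0.0957). Red cell markers summed to 37245 to 1078960 in niche libraries, with replicate 1 highest, and to at most 3389 in the others, and their part in this difference was not tested.

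Ifi27, an interferon-induced protein of mitochondria, was the most abundant member per length in these cells. It had 120, 129, 106 and 102 in stem libraries, 290, 98.4, 101 and 114 in progenitor libraries, and 405, 167, 134 and 129 in niche libraries. The highest stem library lay just below the lowest niche library, progenitor libraries overlapped with both other populations, and Ifi27 was called in no comparison. Isg20l2, a nuclease of ribosome assembly, was higher in stem than in niche libraries (1.85 ± 0.53 (SE), limma adjusted p = 0.0206), but not without stem replicate 4 (adjusted p = 0.0686).

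Ifi208, of a family of DNA-binding proteins with close copies, was higher in stem than in niche libraries by 1.38 ± 0.43 (SE, limma adjusted p = 0.0333). It came from 21 to 240 reads in stem and at most 2 in niche libraries, and the call was lost without stem replicate 1 or niche replicate 2, 3 or 4 (adjusted p up to 0.0649). Usp18, which takes the ubiquitin-like modifier ISG15 off proteins, was not called, with 22.5 to 46.5 in the stem sort, 6.64 to 16.6 in progenitor libraries and 0.225 to 236 in niche libraries. Leaving out niche replicate 1, at 236, made it higher in stem than in niche libraries (3.95 ± 0.51 (SE), limma adjusted p = 5.9e-05) and in progenitor than in niche libraries (2.53 ± 0.51, 0.00315). Stem against progenitor, Usp18 differed by 1.38 ± 1.17 (SE, limma adjusted p = 0.673). A fit of these 2 populations alone gave 1.43 ± 0.32 (SE, limma adjusted p = 0.011).

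As a whole the members took 0.272% to 0.517% of the reads in the stem sort, 0.162% to 0.201% in progenitor libraries and 0.114% to 0.169% in niche libraries. Stem replicate 2 had the highest share. The share in every stem library was above that in every other library, and no test was made of it. These are shares of all reads, not scaled by the TMM factors, which were 1.12 to 1.24 in stem libraries. In niche libraries the factors were 0.418 (replicate 1, with 33.0% alpha-globin) to 0.958, so this order is stated for unscaled reads only.

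A second list held 78 other genes of these pathways that the symbol pattern does not cover, and 34 of them were tested. In stem against progenitor libraries 10 of the 34 were higher and 0 lower at the adjusted p (3.71% and 3.4% of all genes). The median difference was 1.24. None was lower at an unadjusted limma p under 0.05 either, and voom weights also gave 0. The higher ones included Unc93b1, which carries Toll-like receptors to endosomes (167 ± 98.8 in stem and 7.10 ± 2.19 in progenitor libraries, SD, n = 4; difference 4.26 ± 0.55 (SE), limma adjusted p = 0.000241). The chemokine Ccl2, which attracts monocytes, averaged 707 ± 603 in stem and 38 ± 18.5 in progenitor libraries (difference 3.98 ± 0.74 (SE), limma adjusted p = 0.00357). Ly96, the partner of TLR4 in binding lipopolysaccharide, differed by 2.40 ± 0.64 (SE, limma adjusted p = 0.0312). Slfn2, Psmb8, Irgm2, Ifngr1, Epsti1 and Tnfrsf1a were higher too, with differences of 1.5 to 3.94.

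Against niche libraries 12 of the 34 were higher in stem libraries and 1 was lower (10.9% and 10.7% of all genes). The median difference was 0.76. Mavs, the mitochondrial adaptor of RNA sensors, averaged 34.6 ± 2.64 in stem and 9.83 ± 3.65 in niche libraries (SD, n = 4; difference 1.80 ± 0.48 (SE), limma adjusted p = 0.0144). Ripk1, Tab1, Igtp, Iigp1, Parp9, Irgm2, Unc93b1, Ccl2, Slfn2 and Epsti1 were higher as well. Il1r1, the interleukin-1 receptor, was lower, at 0.840 ± 0.490 in stem and 21.8 ± 3.93 in niche libraries (difference -3.66 ± 0.42 (SE), limma adjusted p = 1.49e-05). Progenitor libraries were lower than niche libraries in 4 (Il1r1, Ifngr1, Psmb8 and Unc93b1) and higher in 0 (5.76% and 5.66% of all genes). The median difference was -0.30. At an unadjusted limma p under 0.05, 2 were higher in progenitor than in niche libraries, and limma with voom weights also called 0 of them (1 at the unadjusted p).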

How the data were processed

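Dentate gyrus cells were sorted into stem, progenitor and niche populations, and RNA of 1000 cells was amplified and sequenced in 12 libraries, per the labels' protocols. The deposited table is named as counts by the authors, but its values are log2(RPKM + 1), as the values themselves show: with the log undone, 100% of values above 0 were whole reads within 1e-05 reads. Exon lengths for this were the annotated ones for 1228 genes. For 9282 genes the shortest length that made every value whole was taken from the values themselves, so wholeness is partly set by construction there, and read counts of a gene rest on that length. RPKM values do not use it, but the TMM factors and the filter do. The submitters' processing notes name GRCm38 (mm10) as the build. Which aligner and counter were used, and whether strand counted, is not given in the sources used here. Symbols came from the GENCODE annotation of GRCm38, where 10579 of 10749 identifiers matched. The listed reads summed to 100% of each library total.

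A count test had been planned if the table held raw counts. Since it held log2 values, the planned limma test (limma 3.58.1, R 4.3.3) was used on log2(TMM-scaled RPKM + 1), with 1 mean per group over all 12 libraries, an intensity trend, robust spread and Benjamini-Hochberg adjustment over 8364 genes, two-sided, at 0.05. The filter on low values asked for 0.767 CPM (reads scaled to a common library total) in 4 or more libraries and 15 reads in all. Differences on this scale understate changes of low genes. Reads of amplified RNA without molecular identifiers are not independent molecules, so read counts cover counting error only, and 3 reads correspond to 0.131 to 0.395 CPM. Replicates differed by more than sampling noise (chi-square per degree of freedom was at least 38.9 between stem, 41.6 between progenitor and 118 between niche libraries). The code was tested on simulated data.

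The design text says that each replicate gave all 3 populations, so equal numbers were read as pairs and a fit with the replicate number as a block was run beside the planned unblocked one. Deviations of same-numbered libraries correlated at -0.127 to 0.207 across genes. Alternatives were other scalings, pseudocounts of 0.1 and 4, no filter, voom weights, fits of only the 2 populations compared, and each library left out. Leaving out niche and progenitor replicates 1 together was added after seeing the data.

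The members, their role groups, the marker lists and the list of other pathway genes were chosen with earlier results of these data known. Named are the called members, with every library's value for up to 12 per comparison in order of adjusted p and for the member of each role group with the highest mean level. Other members named, such as Usp18 and Ifit1, were chosen after their values were seen. A few members and other genes counted in the totals are not reported here by name and are not drawn.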

Additional observations from a re-analysis of the deposited data

Results flagged for a closer look

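Levels of the 32 members called in any comparison were searched for a library that stands apart within its population of 4, by Dixon's ratio of the gap to the range. Of 96 such groups 16 stood out, each by its highest value. The critical ratio is set to flag about 1 in 20 independent groups of normally spread values. These levels were not logged and the groups share the same 12 libraries, so the count cannot be set against that rate. Stem replicate 2 was apart for Casp1 at 77.1 (12.7 to 22.5 in the other stem libraries), Nfkbid at 39.4 (10.8 to 15.7), Tnfaip8 at 69.5 (20.3 to 24.3) and Ifitm1 at 9.44 (0.393 to 1.60). Its summed level of macrophage and microglia markers was 14842, against 3801 to 5169 in the other stem libraries.

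Progenitor replicate 1 was apart for Ifitm1 at 101 (15.2 to 29.5 in the other progenitor libraries) and Irf8 at 2.64 (0.832 to 0.990). Progenitor replicate 4 was apart for Tlr4 at 1.98 (0.946 to 1.07) and Nlrp3 at 0.731 (0.0519 to 0.152), and progenitor replicate 2 for Oasl1 at 1.29 (0 to 0.202).

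Niche replicate 1 was apart for Isg20 at 309 (2.87 to 45.8 in the other niche libraries), Irf8 at 37.7 (5.65 to 6.85) and Ifi208 at 0.137 (0 to 0.0219). Niche replicate 2 was apart for Tlr5 at 4.87 (0.0504 to 0.312). Niche replicate 3 was apart for Casp8ap2 at 4.40 (0.0771 to 0.3) and Nfkbie at 4.11 (0.244 to 0.374), and niche replicate 4 for Oasl1 at 3.24 (0 to 0.0290).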

How the results depend on the processing

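Of 50 calls of named members, 28 held in all 21 alternative fits of each, and in 1050 refits of single calls 905 kept the call, 145 lost it and 0 changed direction. The cause of these losses was not tested, except that fits without a library hold fewer samples. The most calls were lost without stem replicate 2 (14 of 50) or progenitor replicate 3 (14), and 11 were lost when only the 2 populations compared were fitted. Leaving out each library in turn gave 6 to 18 members higher in stem than in progenitor libraries, 2 to 5 lower in stem than in niche libraries, 4 to 8 higher and 0 to 8 lower in progenitor than in niche libraries. In the same order, all genes called were 2.38% to 6.41%, 7.71% to 17.1%, 2.92% to 7.78% and 3.56% to 11.9%. Without niche replicate 1 and progenitor replicate 1 together, 6 were lower in stem than in niche libraries (9.38% of the members tested, beside 19.8% of all genes). In that fit 9 were higher and 8 lower in progenitor than in niche libraries (14.1% and 12.5%, beside 10.4% and 13.5% of all genes). The 3 members lower in progenitor than in niche libraries became 0 with a pseudocount of 4 RPKM (11 at an unadjusted limma p under 0.05), 0 with only the 2 populations (7 at the unadjusted p) and 5 with the replicate block. All genes called lower in these 3 fits were 6.06%, 3.42% and 5.95%. The block lost no call of the named members other than Irak4 against progenitor. It added Casp8 higher in stem than in progenitor libraries and Irf2 higher in stem than in niche libraries. Tlr13 and Casp8 were added as lower in progenitor than in niche libraries. Libraries matched best with their own number in 1 of 4 cases for stem and progenitor, 2 of 4 for stem and niche and 2 of 4 for progenitor and niche, so the data show little of a pairing.

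Counts over all genes moved by more than 1.5 times as well. Stem against progenitor libraries gave 310 higher and 284 lower, and 697 and 721 with only these 2 populations, and 538 and 578 without both replicates 1. Stem against niche libraries gave 911 and 896, and 2020 and 586 with library-size scaling, and 1354 and 1653 without both replicates 1. Progenitor against niche libraries gave 473 and 482, and 1524 and 314 with library-size scaling, 242 and 286 with only these 2 populations, and 866 and 1133 without both replicates 1. Without niche replicate 1 alone these were 536 and 555, 1062 and 1433, and 651 and 997. Depth limits the low members: Ifi208 in progenitor and niche libraries and Irf4 in niche libraries lay under the floor of 3 reads, so levels there cannot be told from 0.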
